A study of Mus musculus with 58 samples.

Results

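The Cyp2 and Cyp3 genes encode the cytochrome P450 enzymes that carry much of the oxidation of drugs, solvents, steroids and fatty acids in the mouse. Members were all genes of the array whose symbol, found by matching each probe's accession to RefSeq, began with Cyp2 or Cyp3 followed by a letter. This gave 54 genes of 20018 with a symbol (46 Cyp2 genes and 8 Cyp3a genes in 15 subfamilies), measured by 70 of 26413 named probes. Of the 54 genes, 52 were protein-coding and 2 were pseudogenes (Cyp2d13 and Cyp2d37-ps), and 14 had several probes. The probe with the highest mean Cy5 signal stood for such a gene.

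The samples were 58 two-colour arrays from 20 male Muta™Mouse animals aged 10 weeks, a transgenic strain in which controls and exposed mice alike carry a lacZ reporter for mutation. The mice were gavaged daily for 28 days with olive oil alone (D0, vehicle) or with benz(a)anthracene (BaA), a 4-ring polycyclic aromatic hydrocarbon, in olive oil. The daily doses in mg/kg-bw/day were 20 for group D1, 40 for group D2 and 80 for group D3. Lung, liver and forestomach were collected 72 h after the last dose. Each dose group had 5 mice per tissue, except that 4 livers at D3 and 4 vehicle forestomachs were analysed here. RNA came from random sections of each organ, so each value averages over all cells of a section, and fewer cells of a type and less RNA per cell cannot be told apart. Every value below is a log2 ratio of tissue RNA (Cy5) to a universal reference RNA from 11 mouse cell lines (Cy3), unless a sentence says otherwise. A probe that was dim in both channels read near 0, so a value of 0 does not mean a level equal to the reference.

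Cyp2 and Cyp3 enzymes sit in the endoplasmic reticulum and receive electrons from NADPH-cytochrome P450 oxidoreductase. Many Cyp2b, Cyp2c and Cyp3a genes are induced by foreign compounds through the nuclear receptors CAR (Nr1i3) and PXR (Nr1i2), whereas polycyclic aromatic hydrocarbons such as BaA act mainly through the aryl hydrocarbon receptor (AhR), whose classical targets are the Cyp1 genes. Liver holds most of these enzymes, lung and squamous epithelium hold a smaller set, and Cyp2f2 is well known from the club cells of the airways.

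Tissue labels were set against marker lists, each summarised by its mean log2 ratio on an array. The hepatocyte list read 7.10 to 7.82 in the livers and at most 0.94 in the lungs. The alveolar type 2 list averaged 5.12 to 5.26 in the lung groups, and the squamous epithelium list read 3.74 to 4.81 in the forestomachs. The gastric gland list, which squamous forestomach should lack, exceeded 4 on 10 of the 19 forestomach arrays (5.07 to 6.47) and read 0.72 to 3.09 on the other 9. By dose, 1 of 4 vehicle forestomachs, 5 of 5 at D1, 2 of 5 at D2 and 2 of 5 at D3 were above 4. The squamous list read 3.75 in the lung of vehicle mouse 5 and 1.89 in that of D3 mouse 16, and at most 0.21 in the other 18 lungs. Each tissue was spread over 3 slides of its own that each held all dose groups, so tissue and slide cannot be told apart, and the third slide of each tissue had been scanned on another day.

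The promoters of the genes on which the results turn are printed here so that the dose responses can be read beside their sequence. They are the 250 bases before the annotated start, 5′ to 3′ on the gene's strand, from RefSeq (GRCm38.p6). In the first group of 3, capitals mark a motif. In Cyp2j9 (chr4:96591486-96591735, minus strand) and Cyp2b10 (chr7:25897408-25897657, plus strand) this is GCGTG, the core bound by AhR and its partner (CACGC where it lies on the other strand), and in Cyp2j5 (chr4:96664120-96664369, minus strand) it is AGGTCA, the half-site read by many nuclear receptors.
Cyp2j9: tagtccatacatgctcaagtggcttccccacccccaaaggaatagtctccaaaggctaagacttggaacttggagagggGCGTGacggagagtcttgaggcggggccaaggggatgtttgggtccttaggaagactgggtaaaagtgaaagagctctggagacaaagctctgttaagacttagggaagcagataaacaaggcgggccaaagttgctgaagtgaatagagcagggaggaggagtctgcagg
Cyp2j5: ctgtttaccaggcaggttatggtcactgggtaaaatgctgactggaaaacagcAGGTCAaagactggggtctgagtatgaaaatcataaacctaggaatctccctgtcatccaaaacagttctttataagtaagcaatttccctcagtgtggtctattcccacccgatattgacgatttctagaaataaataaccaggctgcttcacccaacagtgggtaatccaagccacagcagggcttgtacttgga
Cyp2b10: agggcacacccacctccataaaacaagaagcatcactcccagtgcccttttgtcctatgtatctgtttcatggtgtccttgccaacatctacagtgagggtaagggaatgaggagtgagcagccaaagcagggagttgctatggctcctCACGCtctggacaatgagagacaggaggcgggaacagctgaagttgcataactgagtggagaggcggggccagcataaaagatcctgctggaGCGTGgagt

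Both motifs were searched on both strands. GCGTG stood in 28.2% of 32851 RefSeq promoters of this length and in 7 of the 48 promoters found for 45 member genes (14.6%), those of Cyp2ab1, Cyp2b10, Cyp2c68, Cyp2j13, Cyp2j9 and Cyp2w1. AGGTCA stood in 14% of all promoters and in 16 of the 48 (33.3%), among them those of Cyp2j5, Cyp2f2 and Cyp3a11. TTANGTAA, the D-box bound by the clock-output factors Dbp, Tef and Hlf, stood in 2.06% of all promoters and in 1 of the 48 (2.08%), that of Cyp2c38. These matches describe letters in a window and are not binding sites.

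The promoters of Cyp2c65 (chr19:39060756-39061005, plus strand) and Cyp2c66 (chr19:39113648-39113897, plus strand), neighbouring genes whose values moved together across forestomachs (below), are shown with the longest run of bases they share, 48, in capitals.
Cyp2c65: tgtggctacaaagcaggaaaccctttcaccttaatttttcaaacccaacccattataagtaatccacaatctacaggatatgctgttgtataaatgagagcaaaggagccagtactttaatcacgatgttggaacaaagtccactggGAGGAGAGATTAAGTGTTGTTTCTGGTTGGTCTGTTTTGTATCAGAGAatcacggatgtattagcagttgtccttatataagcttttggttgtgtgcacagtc
Cyp2c66: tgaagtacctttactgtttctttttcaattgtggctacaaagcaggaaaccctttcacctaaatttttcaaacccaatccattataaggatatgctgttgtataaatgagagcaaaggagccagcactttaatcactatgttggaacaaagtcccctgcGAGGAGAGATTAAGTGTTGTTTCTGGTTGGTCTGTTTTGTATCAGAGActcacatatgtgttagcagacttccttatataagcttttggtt

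A gene was taken as detected in a tissue where a probe of it was well above background in the Cy5 channel on at least 4 arrays. By this measure 43 member genes were detected in liver, 36 in forestomach and 23 in lung, and 22 in all 3 tissues. Another 11 were detected in liver only (Cyp2c39, Cyp2c50, Cyp2c54, Cyp2d13, Cyp2g1, Cyp2j5, Cyp2u1, Cyp3a16, Cyp3a25, Cyp3a41b and Cyp3a59) and 10 in liver and forestomach (Cyp2a12, Cyp2c29, Cyp2c67, Cyp2c68, Cyp2d10, Cyp2d26, Cyp2d34, Cyp2d37-ps, Cyp2d9 and Cyp3a57). Cyp2b9 was detected in lung only, and Cyp2b19, Cyp2c65, Cyp2c66 and Cyp2j11 in forestomach only. None was detected in lung and forestomach without liver. Cyp2a22, Cyp2ab1, Cyp2b13, Cyp2b23, Cyp2w1 and Cyp3a44 were not well above background on enough arrays of any tissue, and 0 member probes had a saturated spot.

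The large liver subfamilies set this pattern. All 10 Cyp2d genes were detected in liver, 9 in forestomach and 4 in lung, and of 13 Cyp2c genes 11, 10 and 5 were detected. For the 8 Cyp3a genes the counts were 7 in liver, 3 in forestomach and 2 in lung, and detection of Cyp3a11 outside liver rested on its dimmer probe, since the brighter probe was above background on 19 of 19 livers, 1 of 19 forestomachs and 0 of 20 lungs. The single-gene subfamilies 2e, 2f, 2r, 2s and 2t were detected in all 3 tissues. Paralogs within Cyp2c, Cyp2d and Cyp3a are close in sequence, so signal may be shared between them, and likewise between Cyp2a4 and the near-identical Cyp2a5. Probe specificity was not checked for any member, Cyp2b9 and Cyp2b10 included.

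**Figure D1:**
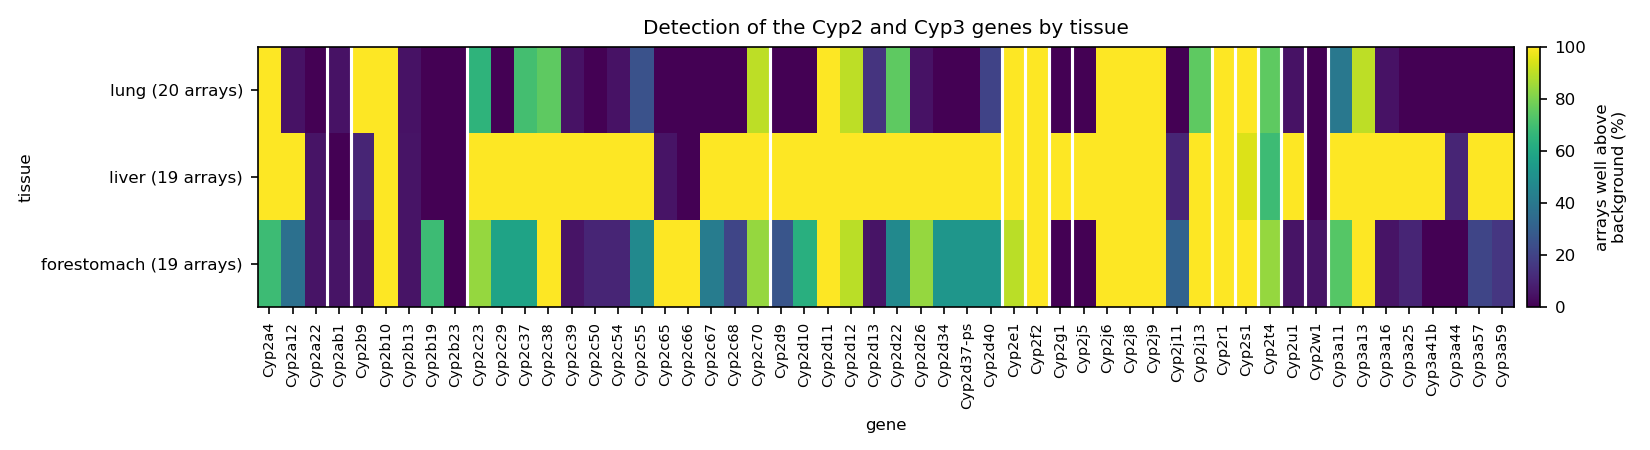
Percent of arrays (of 20 lung, 19 liver and 19 forestomach arrays, in rows) on which each of the 54 Cyp2 and Cyp3 genes (in columns, white lines between subfamilies) was well above background, from dark (0) to yellow (100). On at least 4 arrays, 43 genes were detected in liver, 36 in forestomach and 23 in lung.

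Vehicle tissues were compared to ask where each gene is normally transcribed, using only probes detected in both tissues. A probe was called where the limma adjusted p was at most 0.05 and the fold change at least 1.5. Between vehicle lung and vehicle liver 51.5% of all probes tested were called, and 25 of 27 member probes were called, of which 2 were higher in lung and 23 higher in liver. Between lung and forestomach 31.6% of all probes and 11 of 27 member probes were called, 4 of them higher in lung. Between liver and forestomach 45.1% of all probes and 34 of 38 member probes were called, 33 of them higher in liver. The median log2 difference of the member probes was -3.71 for lung minus liver, -0.22 for lung minus forestomach and 5.25 for liver minus forestomach, against -0.08, -0.03 and 0.08 over all probes tested. Of the 38 probes, 6 were above background on no vehicle forestomach and passed through exposed mice alone, as did 1 of the 27 compared with lung. Many others passed the filter in lung or forestomach at low signal, so these counts describe the tested probes and not the family.

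Cyp2s1, an extrahepatic P450 of epithelia and a known AhR target, ran opposite to the liver pattern. The 5 vehicle lungs read 3.36, 3.18, 3.39, 3.92 and 3.85, the 5 livers read -2.44, -2.50, -2.21, -2.02 and -2.02, and the 4 forestomachs read 4.93, 4.82, 4.95 and 5.06. The tissues did not overlap, with forestomach highest and liver lowest. Lung exceeded liver by 5.78 (SE 0.15, 54.9-fold, adjusted p = 2.65e-36), and forestomach exceeded lung 2.64-fold (lung minus forestomach -1.40, adjusted p = 1.36e-10). Liver minus forestomach was -7.18 (145-fold lower in liver, adjusted p = 4.52e-39).

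Cyp2b10, the best-known CAR target of mouse liver, was highest in lung, where its log2 ratio varied little. All 20 lungs, exposed mice included, lay between 5.22 and 5.52 (median 5.32, SD 0.08). The 19 livers ran from 1.05 to 4.87 (median 2.15, SD 1.15). No lung value overlapped a liver value. In vehicle mice lung averaged 5.34 ± 0.08 (SD, n = 5), liver 2.18 ± 0.99 (n = 5) and forestomach 1.94 ± 0.88 (n = 4). Lung exceeded liver 8.90-fold (adjusted p = 1.43e-07) and forestomach 10.5-fold (adjusted p = 2.34e-07). The size of this difference depended on the scale, since lung minus liver was 7.08 from the Cy5 channel alone and 1.32 from Agilent's processed signals.

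Cyp2f2, which bioactivates naphthalene in club cells, was high in lung and liver alike. Vehicle lung averaged 6.95 ± 0.22 (SD, n = 5), liver 6.64 ± 0.33 (n = 5) and forestomach 5.39 ± 0.18 (n = 4). Lung and liver differed by 0.32 (95% interval 0.05 to 0.59), below the fold minimum, and the sign turned with median centring in place of LOWESS (-0.035), while in the Cy5 channel alone lung was called higher (0.73, adjusted p = 0.00348). Lung exceeded forestomach by 1.57 (2.96-fold, adjusted p = 1.12e-13), which was 0.42 and not called with median centring and 3.83 in the Cy5 channel alone. The club cell list averaged 5.40 to 5.59 in the lung groups and 1.51 to 1.73 in the forestomach groups. Its genes differed widely in forestomach. Scgb1a1 averaged 5.37 in vehicle forestomachs, against 8.53 in vehicle lungs, and was above background on all 19 forestomach arrays. Cbr2, Hp, Muc5b and Scgb3a1 averaged 2.05, 0.77, -0.12 and 0.60 in vehicle forestomachs.

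Cyp2a4, a steroid 15α-hydroxylase, averaged 5.05 ± 0.62 in vehicle lung, 6.32 ± 0.11 in liver and 0.40 ± 0.30 in forestomach (SD). Lung exceeded forestomach 25.0-fold (adjusted p = 9.19e-21, 4.64 on the log2 scale). Its other probe was above background in no vehicle forestomach and at least 12.5-fold higher in lung. Lung lay below liver by 1.27 on this probe and by 2.08 on the other, a difference of the first probe that was not called with Agilent's processed signals (-0.81) and was -3.87 in the Cy5 channel alone. Cyp2b9, a Cyp2b enzyme that is female-predominant in liver, was above background on 20 of 20 lungs (2.28 to 3.45), 2 of 19 livers and 1 of 19 forestomachs. Against the detection limit of the forestomach arrays, vehicle lung was at least 6.29-fold higher in the Cy5 channel.

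Besides Cyp2s1, other members were higher in forestomach than in lung, though most of those given here were also detected in liver. Cyp2b19, an arachidonate epoxygenase of keratinocytes, was above background on 13 of 19 forestomach arrays (0.03 to 1.33) and at least 1.34-fold above lung. Cyp3a13, an intestinal Cyp3a enzyme, averaged 3.48 ± 0.57 in vehicle forestomach, 4.10 ± 0.84 in liver and 0.27 ± 0.29 in lung (SD). Forestomach exceeded lung 9.29-fold on its brighter probe (lung minus forestomach -3.22, adjusted p = 4.47e-11), but only by 0.15 and without a call on the other. Liver minus forestomach was 0.62 and not called on the brighter probe and 1.68 and called on the other. Cyp2c38, Cyp2j6, Cyp2j8 and Cyp2j13 were also higher in forestomach than in lung, by 1.90, 1.84, 1.64 and 1.60 on the log2 scale. All of them were higher still in liver. Their medians over all livers were 7.11, 4.00, 5.96 and 3.68, against 2.11, 2.86, 2.71 and 2.14 over all forestomachs.

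The liver side of the pattern was carried by Cyp2c, Cyp2d, Cyp2a and Cyp3a genes. Cyp2c23, an arachidonate epoxygenase, averaged 7.60 in vehicle liver against -0.06 in lung and 0.32 in forestomach, which made lung minus liver -7.66. Cyp2c70, the hydroxylase that makes muricholic acids, followed at -7.18, Cyp2c38 at -7.07 and Cyp2d40 at -6.44. These genes were well above background in only 2 to 4 of the 5 vehicle lungs. Between liver and forestomach the differences were 8.34 for Cyp2c29 (liver 8.46 ± 0.30, SD, and 1 of 4 vehicle forestomachs above background), 7.28 for Cyp2c23 and 6.94 for Cyp2c70. Cyp2e1, which oxidises ethanol and small solvents, lay 42.6-fold lower in lung than in liver on one probe (-5.41) and lower by 7.33 on the other, and the first of these was -3.85 from Agilent's processed signals and -10.19 from the Cy5 channel alone. Cyp2r1, a vitamin D 25-hydroxylase, lay 3.71 lower in lung.

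For genes not above background on any vehicle array of a tissue a fold is only a lower bound, computed in the Cy5 channel against the detection limit of each array. In vehicle mice liver was at least 1696-fold above lung for Cyp2d26, 1435-fold for Cyp2d10, 868-fold for Cyp2c29, 397-fold for Cyp2d9, a male-specific testosterone hydroxylase, and 188-fold for Cyp3a11, a main drug-metabolising P450. Liver was at least 937.6-fold above forestomach for Cyp2c50, 929.5-fold for Cyp2a12 and 784-fold for Cyp2c54. The bounds of liver over lung were small for Cyp2g1 (5.53-fold), Cyp2j5 (4.56-fold), Cyp3a41b (3.89-fold) and Cyp2u1, a fatty acid hydroxylase (1.98-fold).

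**Figure D2:**
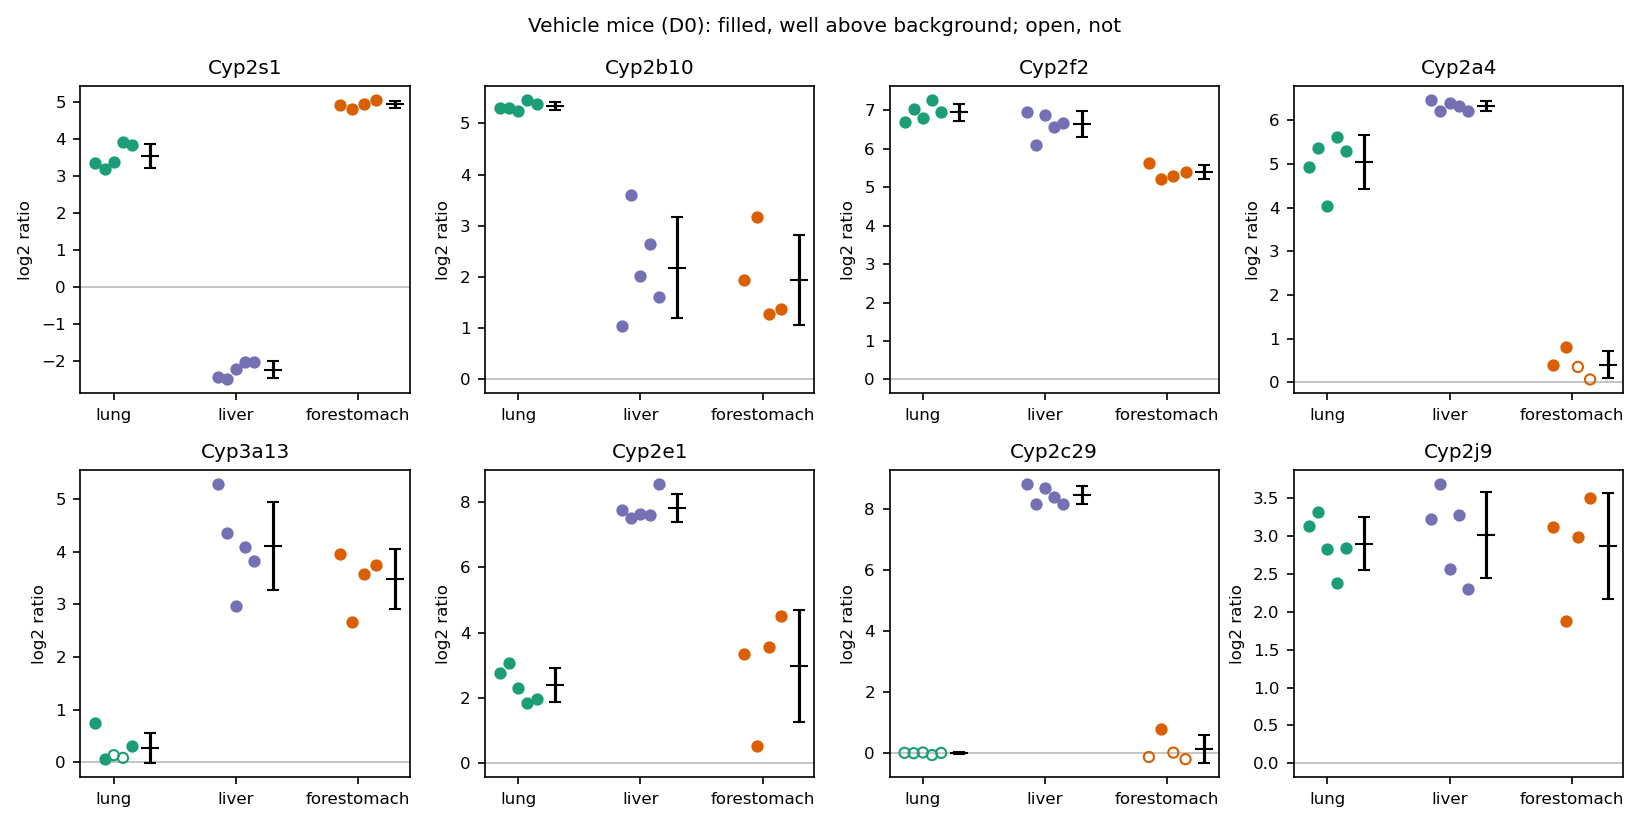
Log2 ratio to the reference RNA in each vehicle mouse (points, open where not well above background) and the mean with SD (bars) for 8 Cyp2 and Cyp3 genes, each on its own vertical scale, in lung (n = 5), liver (n = 5) and forestomach (n = 4). Cyp2s1 was lowest in liver, Cyp2b10 was highest in lung, and Cyp2c29 and Cyp2e1 were highest in liver.

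Few of these genes were called as changed by BaA 72 h after the last dose. At each single dose so small a share of all probes was called that few or no member probes would be called at that rate. The counts at single doses therefore cannot set the members apart from other probes, and a gene not called may still have changed. In lung 0 of 28 member probes were called at D1 (0.00329% of all probes called), 0 at D2 (0.49%) and 0 at D3 (1.75%) by limma, with 3, 2 and 2 member probes at an unadjusted p under 0.05. Of all 30381 probes tested in lung, 2246, 4821 and 7131 had such a p. In liver 0 of 55 were called at D1 (0.241% of all probes), 1 at D2 (0.483%) and 0 at D3 (0.395%), with 5, 10 and 3 at an unadjusted p under 0.05. Of all 22786 probes tested in liver, 1745, 3093 and 3595 had such a p. In forestomach 0 of 43 were called at D1 (0% of all probes), 0 at D2 (0.00928%) and 0 at D3 (0.0248%), with 0, 3 and 2 at an unadjusted p under 0.05. Of all 32313 probes tested in forestomach, 1568, 1128 and 1624 had such a p. A linear dose slope, called at the adjusted p alone, passed for 1 of 28 member probes in lung (11% of all probes), 0 of 55 in liver (0.908%) and 0 of 43 in forestomach (0.0309%), each with 2 at an unadjusted p under 0.05. Over all probes the slopes with such a p numbered 7722 in lung, 3635 in liver and 1670 in forestomach. Both calls, in liver at D2 and of the lung slope, were of Cyp2j9.

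Cyp2j enzymes are epoxygenases of arachidonic acid, and of the 6 Cyp2j genes 4 were detected in lung, 5 in liver and 5 in forestomach. Cyp2j9 (probe accession NM_028979, chromosome 4) was above background on all 58 arrays. In liver the vehicle mice read 3.22, 3.68, 2.56, 3.27 and 2.30 (mean 3.01 ± 0.56, SD), D1 mice 1.86, 2.55, 2.53, 1.73 and 2.83 (2.30 ± 0.48), D2 mice 2.05, 1.70, 1.41, 1.69 and 2.61 (1.89 ± 0.46) and D3 mice 2.35, 2.11, 2.29 and 1.98 (2.18 ± 0.17). All 4 D3 livers and 4 of the 5 D2 livers lay below 4 of the 5 vehicle livers, but vehicle mouse 5 (2.30) lay within the exposed range, and the D2 mean was lower than the D3 mean. The change was -0.71 at D1 (SE 0.26, adjusted p = 0.451), -1.12 at D2 (SE 0.26, 95% interval -1.67 to -0.57, 2.17-fold lower, adjusted p = 0.048) and -0.83 at D3 (SE 0.28, interval -1.41 to -0.24, adjusted p = 0.152). Within the 3 liver slides the D2 difference was -1.37, -1.35 and -0.38.

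The liver call stood close to the threshold. It was lost when any of 8 of the 10 mice compared was left out: the adjusted p was 0.121, 0.125, 0.0555 and 0.118 without vehicle mice 1, 2, 3 and 4 and 0.0806, 0.095, 0.133 and 0.12 without D2 mice 11, 12, 13 and 14. It held without mouse 5 (0.00922) and without mouse 15 (0.0231). The change was smaller and not called with median centring (-0.76, adjusted p = 0.0897), with normexp background correction (-0.95, 0.0597) and with Agilent's processed signals (-0.54, 0.629).

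In lung Cyp2j9 moved the other way. Vehicle lungs read 3.12, 3.31, 2.82, 2.38 and 2.84 (mean 2.90 ± 0.35, SD), D1 lungs 3.19, 2.97, 2.65, 2.84 and 3.38 (3.01 ± 0.29), D2 lungs 3.31, 3.48, 3.13, 3.19 and 2.82 (3.18 ± 0.24) and D3 lungs 3.16, 3.82, 3.43, 3.25 and 3.34 (3.40 ± 0.26). Group means increased with dose, and 1 of the 5 vehicle lungs (3.31) lay within the D3 range. The slope was 0.00646 log2 units per mg/kg-bw/day (SE 0.00194, adjusted p = 0.0352), while the D3 difference of 0.51 (SE 0.17, interval 0.15 to 0.86, 1.42-fold, adjusted p = 0.0692) was not called. Within the 3 lung slides the D3 difference was 0.28, 0.43 and 0.78.

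The slope lost its call without mouse 3 (adjusted p = 0.0616), 4 (0.0723), 5 (0.0547), 17 (0.114) or 18 (0.0616), with median centring (0.977), with processed signals (0.0843) and in the Cy5 channel alone (0.077). The D3 difference was called without mouse 2 (0.61, adjusted p = 0.0377).

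The difference between tissues was itself tested. The D3 change in lung minus that in liver was called for 1 of 27 member probes (2.04% of all probes called), again Cyp2j9, at 1.33 (SE 0.38, interval 0.57 to 2.10, adjusted p = 0.037). This call was lost without mouse 1 (adjusted p = 0.0693), 4 (0.132), 17 (0.128), 18 (0.0867) or 19 (0.109). It was also lost with median centring (1.13, adjusted p = 0.993), normexp (1.09, 0.0835), processed signals (1.00, 0.499) and the Cy5 channel alone (1.11, 0.0726). For lung minus forestomach 0 of 27 were called (0.246% of all probes) and for liver minus forestomach 0 of 38 (0.0227%) by limma, with 4 and 2 at an unadjusted p under 0.05. Over all probes 2386 of 28431 and 1588 of 22071 had such a p. Without mouse 2, the dimmer Cyp2e1 probe was called for lung minus forestomach (2.96, adjusted p = 0.0358). Forestomach Cyp2j9 read 3.12, 1.87, 2.98 and 3.49 in vehicle mice and 2.44, 3.14, 2.77, 2.49 and 2.17 at D3, which overlap (-0.27, interval -0.94 to 0.41). In vehicle mice Cyp2j9 was called between no pair of tissues, with differences of -0.11, 0.03 and 0.14.

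Cyp2j5, detected in liver only, had the smallest unadjusted p at D3 there. Vehicle livers read 2.70, 3.24, 2.43, 2.31 and 3.20 (mean 2.78 ± 0.43, SD), D1 livers 2.52, 2.87, 3.25, 2.54 and 3.20, D2 livers 2.07, 2.00, 2.04, 2.45 and 3.18, and D3 livers 2.82, 1.92, 1.14 and 1.52 (1.85 ± 0.72). Of the D3 livers 3 of 4 lay below every vehicle liver, and the fourth, mouse 16 at 2.82, lay above 3 of them. The D3 change of -0.93 (interval -1.57 to -0.29, 1.90-fold, adjusted p = 0.143) and the slope of -0.0129 (adjusted p = 0.0893) were not called. With the slide as a block both were, at -0.80 (adjusted p = 0.011) and -0.0107 (0.0108), and without mouse 16 they were -1.25 (0.0332) and -0.0165 (0.0258). Cyp2j5 differed between liver slides (1.14 to 2.54, 1.92 to 2.87 and 2.82 to 3.25), and its D3 difference within them was -1.04, -0.79 and -0.40.

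**Figure D3:**
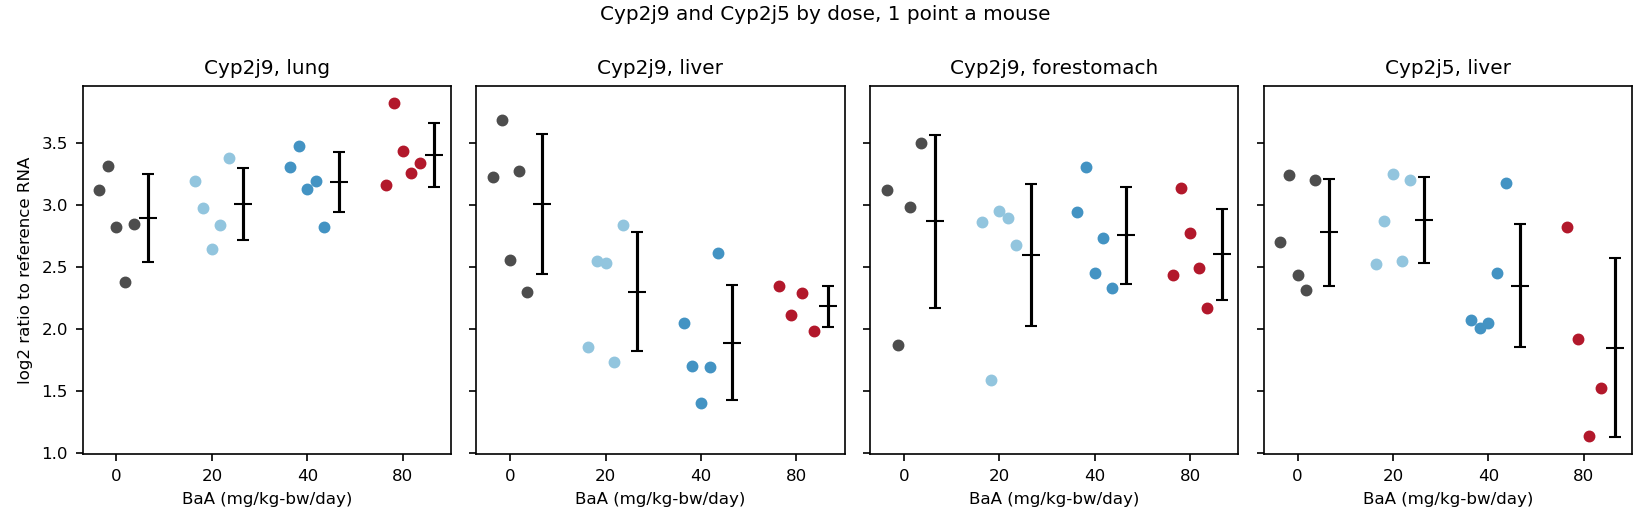
Log2 ratio to the reference RNA of Cyp2j9 in lung, liver and forestomach and of Cyp2j5 in liver, by BaA dose (mg/kg-bw/day), with 1 point per mouse and the mean with SD. Liver Cyp2j9 averaged 3.01 in vehicle mice and 1.89 at D2, and lung Cyp2j9 averaged 2.90 in vehicle mice and 3.40 at D3.

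Cyp2e1 in lung was the member with the largest change at D2 that was not called. Vehicle lungs read 2.77, 3.06, 2.31, 1.85 and 1.99 and D2 lungs 3.46, 3.32, 2.52, 5.22 and 3.12. Of the D2 lungs 4 lay above every vehicle lung, and mouse 14 (5.22) stood apart. In that lung the adipocyte list read 4.91, against 1.27 to 2.49 in the other 19 lungs. The other 4 D2 lungs read 1.94 to 2.49 on the list and the vehicle lungs 1.48 to 2.05. All 4 adipocyte genes tested had a positive D2 change in lung (median 1.30), none called by limma and 3 at an unadjusted p under 0.05, and their part in the Cyp2e1 result was not tested. The D2 change was 1.13 (interval 0.41 to 1.86, adjusted p = 0.10), and 0.71 without mouse 14. The other probe differed by 0.94 (adjusted p = 0.0888), by 0.60 without mouse 14, and was called without mouse 1 (1.10, adjusted p = 0.0489). At D3 the change was 0.53 (interval -0.19 to 1.26).

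Forestomach Cyp2e1 varied more between mice than between doses. Vehicle mice read 3.34, 0.52, 3.56 and 4.50, D1 mice 2.44, -0.05, 0.16, 3.58 and -0.12, D2 mice 3.98, 4.06, 0.35, 0.27 and 2.17, and D3 mice 1.55, 1.90, 0.90, 0.51 and 0.91. High and low values occurred in the vehicle, D1 and D2 groups alike. The 6 arrays above 3 (mice 1, 3, 4, 9, 11 and 12) were those on which the adipocyte list was highest, at 3.41 to 4.51, against 0.15 to 2.72 on the other 13. Mice 6 and 15 (2.44 and 2.17) had hepatocyte list values of 3.49 and 2.99, but mice 2 and 14, with 2.64 and 2.13 on that list, had Cyp2e1 values of 0.52 and 0.27. The D3 change was -1.82 (interval -3.82 to 0.17, adjusted p = 0.9995), and the part of either cell type in it was not tested.

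Cyp2c65 and Cyp2c66, which metabolise arachidonic acid in the gastrointestinal tract, split the forestomachs into a high and a low set. For Cyp2c65 the vehicle mice read 0.43, 4.74, 0.35 and 0.60, D1 mice 3.36, 5.11, 3.18, 4.28 and 3.37, D2 mice 1.14, 0.85, 0.67, 4.99 and 4.63, and D3 mice 0.62, 0.90, 0.82, 4.80 and 4.73. Cyp2c66 read 0.74, 5.65, 0.62 and 1.20, then 4.03, 6.41, 3.90, 5.38 and 4.13, then 1.37, 1.16, 0.91, 6.64 and 5.75, then 1.29, 1.43, 1.32, 5.78 and 5.83 in the same mice. The high and low sets were the same mice for both genes. All 6 arrays of the third forestomach slide, scanned on another day, were in the high set, against 4 of 13 on the other 2 slides.

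On the 10 arrays with the gastric gland list above 4, Cyp2c65 read 3.18 to 5.11 and Cyp2c66 3.90 to 6.64. On the other 9 arrays they read 0.35 to 1.14 and 0.62 to 1.43, with no overlap, and the part of gastric tissue in these values was not tested. All 5 D1 forestomachs were in the high set, so a D1 difference in these genes cannot be told apart from the tissue sampled. At D3 the change was 0.85 for Cyp2c65 (interval -1.62 to 3.32) and 1.07 for Cyp2c66 (-1.87 to 4.02). Cyp2c55, another gastrointestinal Cyp2c, read -2.73 to -1.33 on the 10 arrays and -2.77 to -2.47 on the 9, whereas Cyp2s1 read 4.82 to 5.29 and 4.92 to 5.24.

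**Figure D4:**
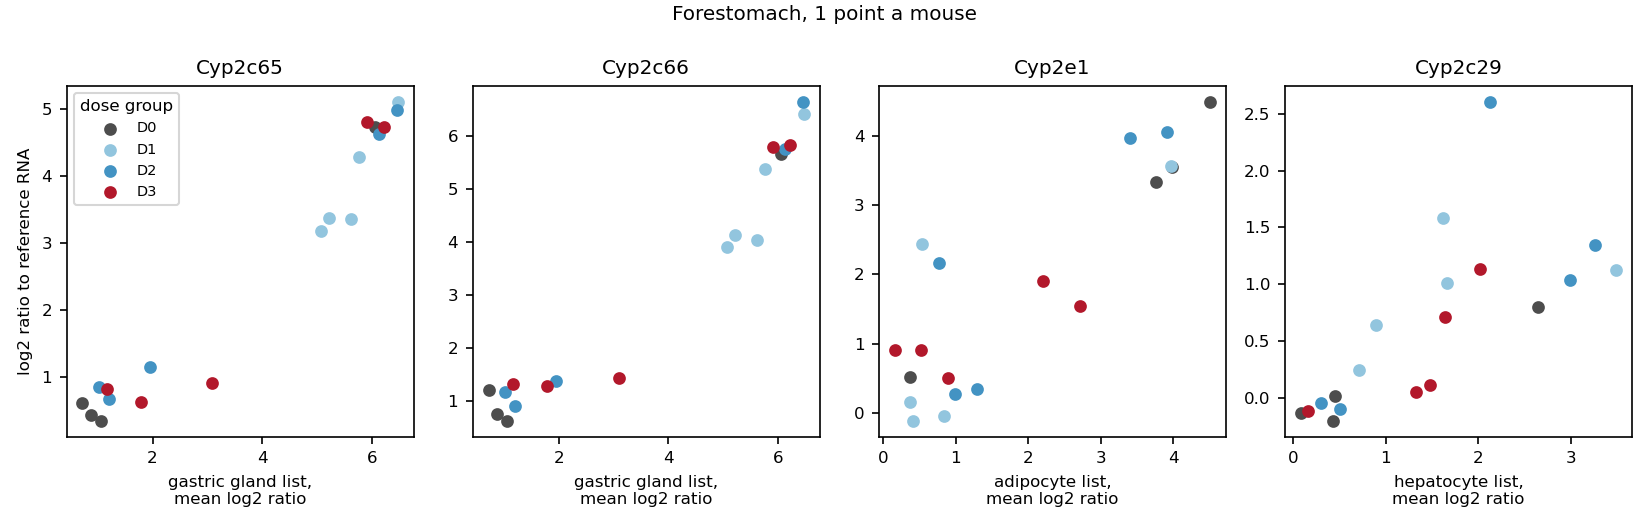
Forestomach log2 ratios of Cyp2c65, Cyp2c66, Cyp2e1 and Cyp2c29 against the mean log2 ratio of a marker list on the same array (gastric gland for Cyp2c65 and Cyp2c66, adipocyte for Cyp2e1, hepatocyte for Cyp2c29), with 1 point per mouse coloured by BaA dose. The Cyp2c65 and Cyp2c66 points fell into a high and a low set divided by the gastric gland list, and both sets held vehicle, D2 and D3 mice.

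Genes of the liver pattern were also measurable at low values in forestomach. Cyp2c29 read -0.20 to 2.60 there, highest in D2 mouse 14. The hepatocyte list averaged 0.90 in the vehicle forestomachs, 1.67 at D1, 1.84 at D2 and 1.32 at D3. The gastric gland list averaged 2.18, 5.63, 3.35 and 3.64 in these groups, and the enterocyte list 0.36, 1.26, 0.99 and 0.73. Mouse 14 read 2.13 on the hepatocyte list, 6.46 on the gastric gland list and 2.44 on the enterocyte list, the highest enterocyte value of the 19. The member probes had a positive change in 35 of 43 at D1, 35 at D2 and 34 at D3, with medians of 0.16, 0.20 and 0.12 against -0.03, -0.01 and -0.01 over all probes. The filter counted exposed arrays too. Of the 38 of these probes also tested in liver, 6 were above background on no vehicle forestomach. Such probes had little room to fall, so the counts are description only. The share of positive changes over all probes was not computed. The part of any of these cell types in the member counts was not tested. In lung the positive counts were 12, 14 and 16 of 28, and in liver 30, 36 and 20 of 55.

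The remaining members of most interest to xenobiotic metabolism were not called at D3. In lung Cyp2b10 had a D3 difference of 0.04 (interval -0.09 to 0.17, adjusted p = 0.756), and of 0.25 in the Cy5 channel alone and with median centring, outside that interval. With median centring and a slide block, a setting chosen after seeing the data, the adjusted p of Cyp2b10 was 0.0288, below the fold minimum. Lung Cyp2f2 had a D3 difference of 0.03 (-0.19 to 0.25, with the sign turned under 4 of the other scalings) and Cyp2s1 of -0.19 (-0.59 to 0.21). Lung Cyp2s1 was 4.01 in D3 mouse 16, the lung with a squamous list value of 1.89, and 3.04 to 3.24 in the other 4 D3 mice. Lung Cyp2r1 read 0.13, 0.40, 0.41, 0.54 and 0.37 in vehicle mice and 0.08, 0.16, 0.21, 0.04 and -0.04 at D3 (-0.28, interval -0.50 to -0.06, adjusted p = 0.102), and its other probe gave 0.17. Lung Cyp2c55 had a D3 difference of -0.30 (adjusted p = 0.214), being above background on 5 of 20 lungs, and Cyp2j6 of 0.21 (adjusted p = 0.269), with 0.01 on its other probe. Within the 3 lung slides the Cyp2c55 difference was -0.27, -0.20 and -0.39, and its lung slope was called with the slide as a block (-0.00405, adjusted p = 0.00362). The lung slope of Cyp2j6 was called with median centring and the slide block (0.00355, adjusted p = 0.0266).

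In liver the CAR and PXR targets were variable. Cyp2b10 read 1.05, 3.60, 2.02, 2.64 and 1.60 in vehicle mice, 2.13, 3.22, 3.56, 3.07 and 2.15 at D1, 1.92, 1.55, 4.87, 4.80 and 1.60 at D2, and 3.42, 4.23, 1.54 and 2.14 at D3. The groups overlapped at every dose, and the D3 change was 0.65 (interval -0.88 to 2.17, adjusted p = 0.731). Cyp3a11 read 7.33, 9.35, 8.79, 7.92 and 8.85 in vehicle mice and 8.66, 8.76, 7.51 and 6.81 at D3 (-0.51, interval -1.40 to 0.38, adjusted p = 0.619). Vehicle mouse 2 had the highest vehicle value of Cyp2b10, Cyp3a11, Cyp3a16 (7.27), Cyp3a41b (4.14) and Cyp2g1 (4.91). Among vehicle livers the SDs were 1.27 for Cyp3a16, 1.24 for Cyp2g1 and 1.08 for Cyp3a41b, and the smallest change detectable for these genes was not computed.

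At D2 Cyp2d10, Cyp2d11, Cyp2d12, Cyp2d22 and Cyp2d26 read 0.31, 0.35, 0.27, 0.31 and 0.33 above vehicle in liver, with adjusted p from 0.205 (Cyp2d10) to 0.31 (Cyp2d11), and none was called. These are only some of the 10 Cyp2d genes detected in liver, and they do not describe the subfamily. In the Cy5 channel alone Cyp2d13 was called lower at D2 (-1.18, limma adjusted p = 0.0161). Over the 55 liver probes the D3 changes ran from -0.93 (Cyp2j5) to 0.65 (Cyp2b10), over the 28 lung probes from -0.32 (dimmer Cyp2a4 probe) to 0.53 (Cyp2e1), and over the 43 forestomach probes from -1.84 (dimmer Cyp2e1 probe) to 1.07 (Cyp2c66).

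Other liver members given here were tighter, except Cyp3a13. Cyp2a12 read 8.09, 7.52, 7.91, 7.66 and 7.55 in vehicle mice and 7.38, 7.37, 7.38 and 7.75 at D3 (-0.28, interval -0.54 to -0.01, adjusted p = 0.303). Cyp2c54 read 9.63, 8.99, 9.50, 9.33 and 9.23 in vehicle mice and 9.25, 8.97, 8.68 and 9.21 at D3 (-0.31, adjusted p = 0.323). The groups overlapped for both, and both signs turned in the Cy5 channel alone. Cyp2c29 had a D3 difference of -0.16 (interval -0.46 to 0.15), Cyp2e1 of 0.16 (-0.48 to 0.80), Cyp2d9 of 0.02 (-0.39 to 0.43), Cyp2d22 of 0.01, Cyp3a13 of -0.001 (-0.92 to 0.92), Cyp2u1 of -0.004 (-0.39 to 0.38) and Cyp2a4 of -0.06 (-0.24 to 0.12).

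In forestomach Cyp2r1 read 0.79, 0.05, 0.50 and 0.45 in vehicle mice and 0.81, 0.63, 0.86, 0.92 and 0.70 at D3 (0.34, interval 0.06 to 0.63, adjusted p = 0.866). Cyp2s1 read 5.16, 5.24, 5.13, 5.17 and 4.97 at D3, of which 4 lay above all 4 vehicle values (0.20, interval -0.01 to 0.41, adjusted p = 0.9995). Cyp2b10 had a D3 difference of 0.45 (interval -0.53 to 1.43) and Cyp3a13 of 0.16 (-0.58 to 0.90).

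**Figure D5:**
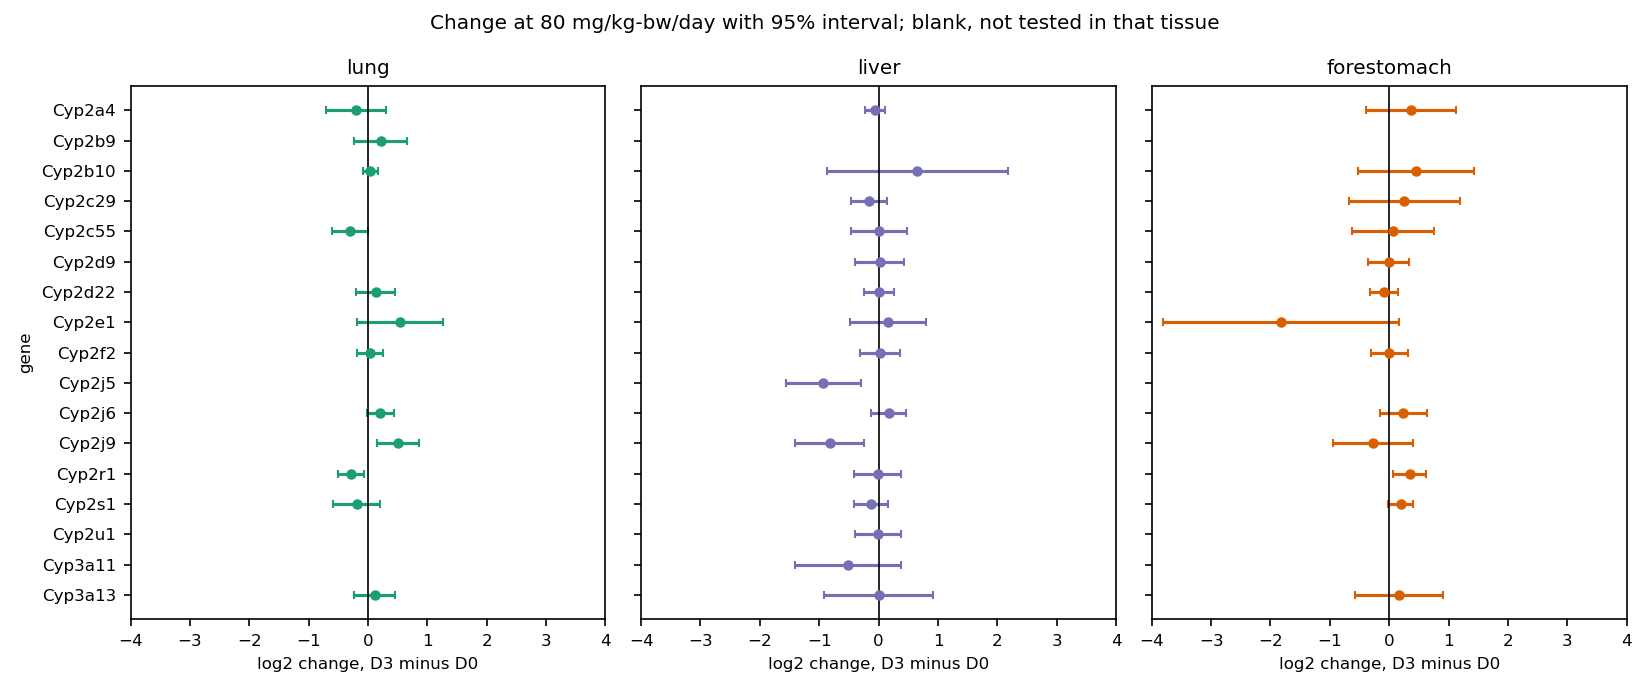
Change at D3 against vehicle (log2 units) with its 95% interval for 17 Cyp2 and Cyp3 genes in lung, liver and forestomach, left blank where a gene was not tested. On the scale of the log2 ratio, intervals were narrow in lung for Cyp2b10 and Cyp2f2 and wide for liver Cyp2b10 and forestomach Cyp2e1.

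Genes that work with these enzymes were read from 3 further lists. Of 8 electron-transfer and haem partners of the P450s, 6 were called higher in vehicle liver than in lung and 7 higher than in forestomach, in comparisons that called 51.5% and 45.1% of all probes. Por, the oxidoreductase itself, was the 1 partner called higher in lung than in liver (0.93, limma adjusted p = 0.00184), and its liver minus forestomach difference was -0.55 (adjusted p = 0.0824). Por averaged 0.95 ± 0.21 (SD) in vehicle lungs and 0.02 ± 0.83 in vehicle livers, and over all livers it ran from -1.23 to 1.46. At D3 it averaged 1.16 in lung and 0.72 in liver. At each dose, in each slope and in each D3 difference between tissues 0 of the 8 were called by limma, with 0 or 1 at an unadjusted p under 0.05. Of the other CAR and PXR targets 0 of 9 in lung, 0 of 12 in liver and 0 of 10 in forestomach were called at each dose, with 0 to 2 at an unadjusted p under 0.05. The counts over all probes at each dose are given above. In the lung slope Ephx1, an epoxide hydrolase, passed upward (0.00493, adjusted p = 0.0456) and Abcc4, an efflux transporter, passed downward (-0.00306, 0.0392), in a comparison that called 11% of all probes.

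Among transcription factors that regulate P450 genes, Dbp and Tef, clock-output factors that bind the D-box, rose in lung. Dbp averaged 0.09 ± 0.76 (SD, n = 5) in vehicle lungs and 1.92 ± 0.38 (n = 5) at D3, a change of 1.82 (SE 0.34, adjusted p = 0.00264), and it rose by 1.45 at D2 (adjusted p = 0.0317). Tef averaged 1.43 ± 0.45 and 2.37 ± 0.26, a change of 0.95 (adjusted p = 0.0145). These were 2 of 11 regulators called in lung at D3, against 0 of 17 in liver and 0 of 15 in forestomach by limma (5, 5 and 3 at an unadjusted p under 0.05), where 1.75%, 0.395% and 0.0248% of all probes were called. Over all probes 7131 of 30381, 3595 of 22786 and 1624 of 32313 had an unadjusted p under 0.05 at D3. With median centring in place of LOWESS 0 probes of any gene were called in lung at D2, at D3 or for the slope, so the lung calls of Dbp, Tef, Ephx1 and Abcc4 were lost there. Dbp also read higher at D3 in liver (1.37, adjusted p = 0.215) and forestomach (1.77, adjusted p = 0.523) without a call, and its lung change did not differ past the threshold from that in liver (0.45, adjusted p = 0.851). The D3 change of Ahr, the aryl hydrocarbon receptor, differed between lung and liver by 0.63 (limma adjusted p = 0.0193), being 0.34 in lung and -0.29 in liver. Neither change was called within its tissue, and 0.63 lay just above the fold minimum of 0.585. Ahr was the 1 of 11 regulators called there, where 2.04% of all probes were called. With median centring this comparison called 10 probes in place of 446, and Ahr was not looked up under that setting. Nr1i3 (CAR) was above background on 19 of 19 livers, 0 of 20 lungs and 1 of 19 forestomachs, and Nr1i2 (PXR) on 19, 2 and 9. In liver their D3 differences were 0.06 and 0.03, neither of them called.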

How the data were processed

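Total RNA of each tissue was hybridised to Agilent 8 × 60 K two-colour arrays, with tissue RNA in Cy5, universal reference RNA in Cy3 and no dye swap. The authors took median spot signals without background correction and LOWESS-normalized them, and the deposited value table holds log2 ratios (Cy5 over Cy3). These were checked against the deposited scanner intensities (Agilent Feature Extraction 10.7.3.1, per the file headers) by a loess of the same signals, with r of 0.9948 to 0.998 per array, which also fixed their direction. All columns of the table were mapped to a sample (0 left over), and 0 pairs of arrays were identical. The number of arrays limits the precision.

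Probes were named by matching their accession to RefSeq (20018 symbols), and those well above background on at least 4 arrays of a tissue were tested. The methods name MAANOVA, which was not installed, so limma 3.58.1 (R 4.3.3, statmod 1.5.0, data.table version 1.17.8) took its place, with the study's thresholds (adjusted p at most 0.05, Benjamini-Hochberg over all probes, fold change at least 1.5). Each tissue had 1 model of 4 dose groups. Vehicle tissues and D3 effects were compared in a model of all 12 groups, for probes detected in both tissues. The code was tested on simulated data. A marker list's value is the mean over its genes.

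Mouse numbers mark the same animal across tissues, so tissue comparisons are paired. The consensus correlation was 0.0516 (lung and liver), 0.0438 (lung and forestomach) and 0.0501 (liver and forestomach), and the unblocked fit was kept as main. Per-mouse values were given for members called at a dose, in a slope or in a D3 difference between tissues. Other members were given by per-mouse values, means, ranges or differences. These were the members with the smallest p at D3 (up to 4 per tissue), the 5 largest vehicle differences per tissue pair, and 16 well-known members, of which Cyp2a5 had no matched probe. Cyp2e1, Cyp2c65 and Cyp2c66 in forestomach and Cyp2e1 in lung were detailed after their values were seen. Members and lists were chosen with earlier results of these data known. Alternatives were other normalizations and signals, other filters, slide and mouse blocks, fewer groups, dose as rank, and leaving out each mouse.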

Additional observations from a re-analysis of the deposited data

Results flagged for a closer look

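The D3 change of Cyp2j9 differed between lung and liver by 1.33 in the test of that difference (limma adjusted p = 0.037), D3 lungs reading higher than vehicle and D3 livers lower. It is the only tested difference in D3 change between tissues that passed among the member genes.

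In 15 of 160 groups of 4 or 5 mice scanned (16 genes in the 3 tissues), 1 mouse lay far from the others by Dixon's criterion, where chance gives about 1 in 20. In forestomach these were Cyp2a12 in vehicle mouse 2 (0.35) and D1 mouse 6 (0.93), Cyp2c55 in vehicle mouse 2 (-1.60), Cyp2j6 in D1 mouse 10 (2.08) and D2 mouse 14 (3.30) and Cyp2j9 in D1 mouse 7 (1.59). Cyp2a12 was well above background on no vehicle forestomach, so its value in mouse 2 is a reading at the floor. Vehicle mouse 2 had a gastric gland list value of 6.05, and D1 mouse 6 had a hepatocyte list value of 3.49. Mouse 2 was also the only vehicle forestomach on the third slide, scanned on another day, and the part of the slide was not tested.

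In liver they were Cyp2a12 in D3 mouse 19 (7.75), Cyp2c23 in D2 mouse 12 (5.23), Cyp2c29 in D2 mouse 15 (8.47), Cyp2e1 in vehicle mouse 5 (8.55) and D2 mouse 13 (8.83), Cyp2f2 in D2 mouse 12 (7.07) and Cyp3a13 in D2 mouse 15 (4.45). In lung they were Cyp2c55 in D2 mouse 15 (-2.52) and Cyp2s1 in D3 mouse 16 (4.01), the lung with a squamous list value of 1.89. In lung and in liver alike, mouse 15 was the only D2 mouse on the third slide, scanned on another day. The part of the slide in these values was not tested.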

How the results depend on the processing

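Of the member counts under settings other than leaving out a mouse, 153 of 177 stayed within 1.5 times the main count. The cause of the 24 that moved was not tested, except that dropping the filter or testing probes of either tissue adds probes and using 2 groups drops samples. With median centring, normexp, processed signals, no filter on dim probes or the 2 groups alone, the liver D2 count was 0 in place of 1, and in the Cy5 channel alone it was 2 (Cyp2j9 and Cyp2d13, both lower than vehicle). The lung slope count was 0 in place of 1 with median centring, processed signals, the Cy5 channel alone or no filter, and 2 with the slide as a block (Cyp2j9 and Cyp2c55) or with median centring and that block together (Cyp2j9 and Cyp2j6), a setting chosen after seeing the data. That added setting also called 2 probes at lung D2 in place of 0, both of Cyp2e1. The slide block alone called 1 (Cyp2j5) at liver D3 and in the liver slope in place of 0. The count for the D3 effect of lung minus liver was 0 in place of 1 with median centring, normexp, processed signals, the Cy5 channel alone or no filter. With probes of either tissue, 54 in place of 25 were called between vehicle lung and liver (also with no filter) and 53 in place of 34 between vehicle liver and forestomach.

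Leaving out each mouse gave 0 to 1 calls at lung D2, lung D3, liver D2, liver D3, both slopes, and the D3 effects of lung minus liver and lung minus forestomach, and 24 to 25, 10 to 13 and 34 to 35 for vehicle lung against liver, lung against forestomach and liver against forestomach. With the mouse as a replicate block for the paired tissues, the D3 effect of Cyp2j9 was 1.34 (adjusted p = 0.029), and the block changed no member count. Signs turned for lung Cyp2f2 at D3 (-0.026 with own loess, processed signals or normexp, -0.11 in the Cy5 channel alone, -0.033 to 0.11 without 1 mouse), liver Cyp2a12 and Cyp2c54 at D3 (0.10 and 0.048 in the Cy5 channel alone), vehicle lung minus liver of Cyp2f2 (-0.035, against 0.73 and a call in the Cy5 channel alone) and liver minus forestomach of Cyp3a13 (-0.30) with median centring, lung Cyp2j9 at D1 (-0.02 to 0.21 without 1 mouse) and forestomach Cyp3a13 at D3 (-0.11 to 0.33 without 1 mouse). Calls over all probes moved too: with median centring the lung slope had 0 in place of 3330, lung D3 0 in place of 532 and lung D2 0 in place of 149, which leaves no call in lung for any gene outside the family either. Under the other settings such genes were not computed one by one.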
